A study of Mus musculus with 71 samples.

Results

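The HoxB cluster on mouse chromosome 11 was examined in a map of chromatin loops from SyS tumors. Its 10 genes, Hoxb1, Hoxb2, Hoxb3, Hoxb4, Hoxb5, Hoxb6, Hoxb7, Hoxb8, Hoxb9 and Hoxb13, were taken by name, out of 55450 genes with an annotated TSS in GENCODE vM21. In mm10 the cluster runs from 96194316, the start of Hoxb13, to 96368256, the end of Hoxb1, a length of 174 kb. All 10 genes lie on the plus strand, so that transcription runs from the Hoxb13 end towards the Hoxb1 end. A gene was given every loop with an anchor no farther than 2 kb from a TSS of its transcripts, and its loop score is the sum of the paired-end tags (read pairs) of those loops. Every loop with an anchor in the cluster was also taken. It was said to lie within the cluster when both anchors overlapped it, and to leave the cluster when 1 did.

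HiChIP captures ligated contacts between distant pieces of chromatin by immunoprecipitation, here with an antibody against H3K27ac, the mark of active promoters and enhancers. It was done on 2 of the 71 samples of the series, SyS mouse tumors whose genotype is given as expression of SS18::SSX2, the fusion oncogene of synovial sarcoma. The methods name them hSS2 tumors, dissociated to single cells before crosslinking, and describe TATCre protein injected into the limb of young mice as the way the tumors of the study were started. No control tissue and no untreated sample was measured by HiChIP. The loops of both tumors were deposited as 1 merged list of 24244 loops with a total count of 41574 tags. It is made of 2 stretches, each sorted by position. They are called its first part (28657 tags) and second part (12917 tags), and neither names a tumor. There are therefore no replicate values and no test, and each interval given is a Wilson 95% interval that takes in counting error alone. A contact is listed only when it passed the loop caller, so a gene without a listed loop may still have contacts below that threshold. Marker genes were read as a check of the label. Over the list, 45.8% of protein-coding genes had a loop, and looped genes had a median loop score of 4. Loops were listed at 5 of 6 synovial sarcoma genes (all but Bcl2), from 4 tags at Tle1 to 172 at Zic2. Of 5 skeletal muscle genes 1 had a loop (Ckm, 2 tags). Loops were also listed at 2 of 4 endothelial and 2 of 4 epithelial genes (at most 3 tags each). No loop was listed at any of 4 immune genes, Ptprc, Cd68, Itgam and Cd3e.

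Hox genes encode homeodomain transcription factors that give cells their position along the body axis. They sit in clusters, in the order in which they are switched on in the embryo, with the Hoxb1 end first and responsive to retinoic acid. Where they are silent they are held by Polycomb complexes, which mark nucleosomes by H3K27me3 and by ubiquitylated H2A, and H3K27ac marks the stretches that are active. The clusters also hold small RNA genes. Mir10a lies upstream of Hoxb4 and Mir196a-1 between Hoxb9 and Hoxb13, with close relatives in the other Hox clusters.

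Because the strongest loop of the cluster starts at the shared anchor of Hoxb4 and Mir10a, the mature microRNAs of both families are shown, as RefSeq gives them on GRCm38, with the seed (bases 2 to 8) in capitals.
mmu-miR-10a-5p, from Mir10a in HoxB: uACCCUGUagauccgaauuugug
mmu-miR-10b-5p, from Mir10b in HoxD: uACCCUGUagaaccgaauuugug
mmu-miR-196a-5p, from Mir196a-1 in HoxB and Mir196a-2 in HoxC: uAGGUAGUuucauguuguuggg
mmu-miR-196b-5p, from Mir196b in HoxA: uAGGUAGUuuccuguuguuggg
Members of a family have the same seed. The miR-10 pair differs at 1 base (U12A, counted from the 5′ end, from miR-10a to miR-10b), and miR-196a differs from miR-196b at 1 base (A12C). The genes that make them differed widely in loops. Mir10a had a loop score of 63, all of it through the Hoxb4 anchor, and Mir10b had 2. The 2 genes that make an identical miR-196a-5p stood at opposite ends, with a loop score of 381 for Mir196a-2 in HoxC and no loop listed for Mir196a-1 in HoxB. None was listed for Mir196b.

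RefSeq's promoter table held 3 of the 10 genes, which had loop scores of 63, 34 and 2. The 240 bases that end 10 bases before the start of each are shown, on the plus strand of GRCm38. Capitals mark matches on either strand. The motifs were GATC, the site of MboI, which cut the chromatin, and TATAAA, the TATA box of core promoters. The others were CCAAT, the box bound by NF-Y, and TGATNNAT, a site that HOX proteins bind together with PBX. The first and the last of these can share bases.
Hoxb4, loop score 63, chr11:96318017-96318256: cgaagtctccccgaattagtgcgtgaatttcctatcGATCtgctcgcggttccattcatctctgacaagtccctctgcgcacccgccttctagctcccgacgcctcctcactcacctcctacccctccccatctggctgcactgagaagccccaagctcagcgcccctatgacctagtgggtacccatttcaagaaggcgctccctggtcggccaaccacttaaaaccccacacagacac
Hoxb8, loop score 34, chr11:96281655-96281894: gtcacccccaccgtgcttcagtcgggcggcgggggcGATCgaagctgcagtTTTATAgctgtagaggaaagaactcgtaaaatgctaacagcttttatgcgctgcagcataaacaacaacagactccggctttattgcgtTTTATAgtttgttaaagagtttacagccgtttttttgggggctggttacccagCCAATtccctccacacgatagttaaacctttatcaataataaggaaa
Hoxb1, loop score 2, chr11:96365508-96365747: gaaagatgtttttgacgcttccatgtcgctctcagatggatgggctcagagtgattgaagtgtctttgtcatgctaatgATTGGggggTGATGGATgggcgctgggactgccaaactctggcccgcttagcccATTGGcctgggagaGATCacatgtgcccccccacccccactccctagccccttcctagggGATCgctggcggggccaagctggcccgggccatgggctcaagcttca
The Hoxb1 sequence holds 1 TGATNNAT match, in the stretch known for regulation of Hoxb1 by HOX and PBX proteins, and 2 CCAAT matches. Hoxb8 holds 2 TATAAA matches and 1 CCAAT match, and Hoxb4 holds neither. All 3 hold GATC, so that MboI can cut there. Of all 32851 promoters of the table, 7.46% hold TGATNNAT, 33.0% CCAAT, 12.1% TATAAA and 40.6% GATC. Their GC content was 57.9% at Hoxb4, 45.4% at Hoxb8 and 59.2% at Hoxb1, beside a median of 52.1% over the table.

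Of the 10 HoxB genes, 9 had a loop, beside 23.9% of all genes and 45.8% of protein-coding genes in the list. Loops in both parts were found for 8 genes (12.2% of all genes), a loop at an FDR under 0.001 for 7 (5.84% of all genes), and a loop score of at least 50 for 5 (0.546% of all genes). The median loop score of the 10 genes was 50.5, and that of all looped genes was 4. Together the promoters held 111 loops with 265 tags. The 10 scores sum to 468, since 36 of these loops were counted at more than 1 of the genes, so the scores of neighbors are not independent.

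The scores rose along the cluster from Hoxb9 to Hoxb2 with a dip at Hoxb6, and both ends were nearly empty. Hoxb13, the gene of the most posterior group, had no loop in either part. The 56.0 kb from its start to the first anchor of the cluster held none either. A contact there would be seen only above the threshold of the caller, since the loops shorter than 100 kb had at least 6 tags in the first part and at least 2 in the second. Hoxb1, at the opposite end and active in the early hindbrain, had 2 loops of a single tag each, both from the second part. Between them, the level was highest at Hoxb2, a hindbrain and neural crest gene, with a loop score of 108 in 30 loops. Its score was higher than that of 99.8% of looped genes.

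The parts of the list contributed unequally, gene by gene. Hoxb2 had 52 tags in the first part and 56 in the second, and Hoxb3 47 and 33. Hoxb4, a gene known for its role in blood stem cells, had 57 and 6. Hoxb5 had 11 and 43, and Hoxb6 had 6 and 41. Hoxb7 had 28 and 26, Hoxb8 28 and 6, and Hoxb9, a gene of the thoracic skeleton and mammary gland, 9 and 17. By these scores Hoxb4 and Hoxb8 rested mostly on the first part, Hoxb5 and Hoxb6 mostly on the second, and Hoxb2, Hoxb3 and Hoxb7 drew on both. For Hoxb7 and Hoxb5 this rests on anchors shared with a neighbor. The 28 first-part tags of Hoxb7 are the same 28 as those of Hoxb8, from an anchor over Hoxb8. With a promoter window of 1 kb Hoxb7 had 26 tags, all of the second part. Hoxb5 shares with Hoxb6 an anchor with 32 tags, all of the second part. The anchor over Hoxb5 itself had 22 tags, 11 in each part. The whole list has 31.1% of its tags in the second part, and the HoxB cluster had 58.6% (52.8 to 64.2%).

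**Figure D1:**
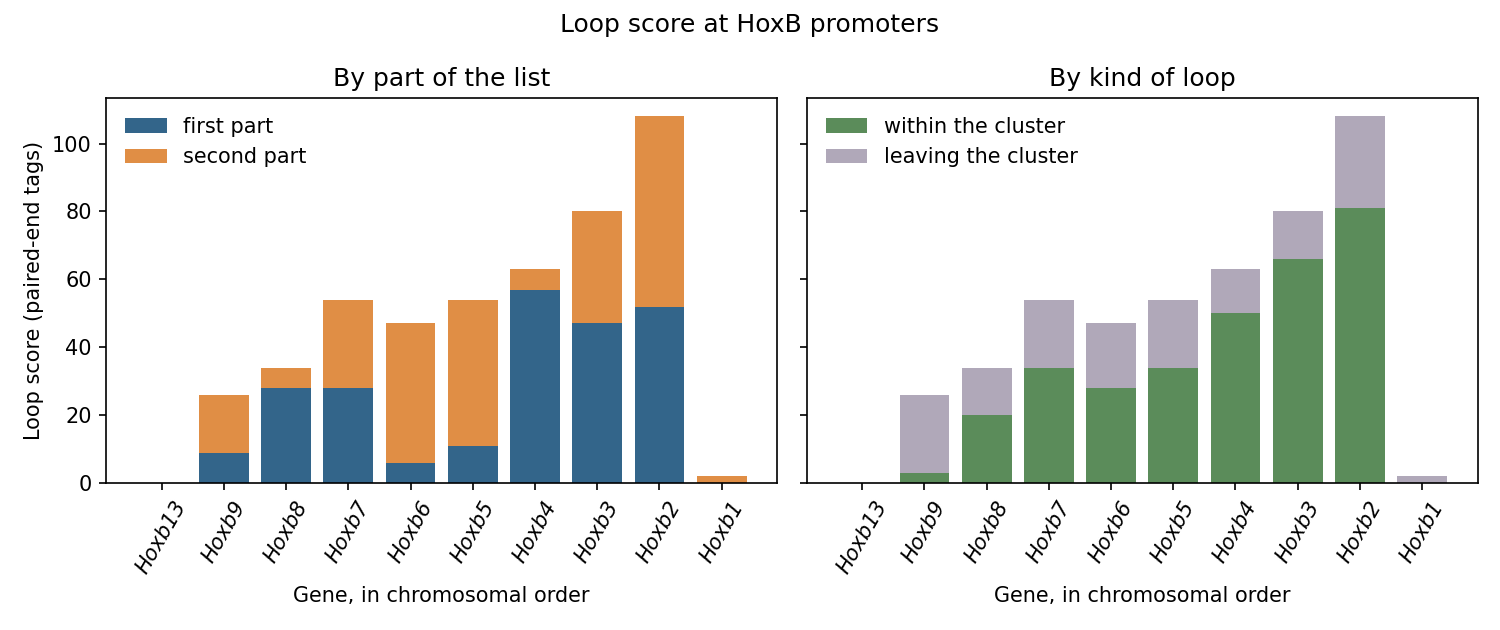
Loop score (paired-end tags) of each HoxB gene in chromosomal order, split by part of the list on the left and by loops within or leaving the cluster on the right. Hoxb13 has no bar, Hoxb2 reaches 108 with 52 tags from the first part, and Hoxb9 has 3 of its 26 tags within the cluster.

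The order of the scores depends on which TSSs are counted, because neighbors lie close. The score of 108 at Hoxb2 belongs to the TSS of a retained-intron transcript at 96350525, which an anchor over the end of Hoxb3 also reaches. The protein-coding TSS of Hoxb2 at 96351631 alone had 17 loops and 60 tags (26 and 34 by part). Hoxb3 had 29 tags at each of its TSSs at 96323326 and 96328062, all from the first part, and 59 tags at the TSS at 96343769, where both parts were present. Hoxb6 had 23 tags at 96292476 and 32 at 96299171, the latter from the second part alone. With a promoter window of 1 kb Hoxb4 (63) stood above Hoxb2 (60) and Hoxb6 (47). With RefSeq TSSs Hoxb3 led with 103. The empty Hoxb13 and the 2 tags of Hoxb1 were the same in each of these settings.

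Other genes that start inside the cluster were looped through the same anchors. The antisense gene Hoxb3os had the same 30 loops and 108 tags as Hoxb2. Mir10a had the 14 loops of Hoxb4, and the antisense genes Hoxb5os and Gm11536 had 10 loops (22 tags) and 9 loops (33 tags). Toward Hoxb13, the noncoding gene Gm53 and the pseudogene Gm11539 shared 11 loops with 21 tags, all from the second part. HiChIP does not tell strands apart, so none of these tags can be given to a sense or an antisense gene.

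The cluster was touched by 126 loops with 285 tags, 0.686% of all tags in the list. Of these loops 22 had an FDR under 0.001 (17.5%, 11.8 to 25.0%), beside 8.06% of all loops in the list. Loops within the cluster held 142 tags in 20 loops and loops leaving it 143 tags in 106 loops, so that 49.8% (44.1 to 55.6%) of the tags lay within. The share depends on the weight given to single-tag loops, and was 91.3% when only loops of at least 4 tags were kept and 15.9% when loops were counted in place of tags. This share was 62.7% (53.7 to 70.9%) in the first part and 40.7% (33.6 to 48.3%) in the second. The balance shifted along the cluster. Of the tags of Hoxb2, 81 were within and 27 leaving, and Hoxb3 (66 and 14) and Hoxb4 (50 and 13) were alike in this. Hoxb5 and Hoxb7 each had 34 within and 20 leaving, Hoxb6 had 28 and 19, and Hoxb8 had 20 and 14. Hoxb9 went the other way, with 3 within and 23 leaving. Values of neighbors share tags here. Hoxb7 and Hoxb8 have 20 tags within the cluster in common, and Hoxb5 and Hoxb6 have 22. The anchor over Hoxb5 alone had 12 within and 10 leaving, and that over Hoxb7 alone 14 and 12.

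Anchors in the cluster merged into 14 regions, of which 12 lay within 2 kb of a TSS of a HoxB gene. The 20 loops within the cluster included 13 loops with 111 tags that had a TSS of a HoxB gene within 2 kb of both anchors. Not all of these need join different genes. The same gene lay near both anchors in a loop of 8 tags (Hoxb6), another of 8 tags (Hoxb3) and a loop of 11 tags (Hoxb2). The strongest, of 15 tags (FDR 4.45e-05), joined the Hoxb4 and Mir10a region (chr11:96317196-96320154) over 28.6 kb to the region at the last Hoxb3 TSS, close to Hoxb2. The same Hoxb4 region was joined by 13 tags (FDR 0.000874) to Hoxb2, 33.5 kb away, and by 12 tags (FDR 0.00135) to the Hoxb8 gene body, 34.3 kb away on the other side. It was joined by 10 tags (FDR 0.0308) to an anchor inside Hoxb3, 7.08 kb away. All 50 of its tags within the cluster came from the first part, so there Hoxb4 was the hub of 4 of the 7 loops.

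In the second part the loops within the cluster lay elsewhere. The strongest had 11 tags (FDR 1.03e-06) and joined the regions at Hoxb3 and Hoxb2 over 6.69 kb. A loop of 8 tags (FDR 0.000652) joined the regions at both Hoxb6 TSSs, 6.39 kb apart, and 6 tags (FDR 0.00852) joined Hoxb7 to the nearer of them. A region in the body of Hoxb3 (chr11:96331434-96334197), with no TSS within 2 kb, met 5 other regions by 24 tags and held 30 tags in all, every one from the second part. The longest loop within the cluster, of 3 tags over 101 kb (FDR 0.000691), joined Gm53 to Hoxb2 and was also of the second part.

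No pair of regions was joined in both parts, out of 7 pairs in the first and 13 in the second. Over the whole list, 13.9% of the loops of the first part that were shorter than 100 kb were also in the second. The parts list different strengths. Loops of the same spans had at least 7 tags in the first part, and 3 of the 13 pairs of the second part had that many. Loops within the cluster had a median of 10.0 tags in the first part and 4 in the second. These are also the medians of all loops of each part over the same ranges of span, 7.08 to 67.8 kb and 5.44 to 101 kb. Loops were not matched by length inside these ranges, so tags at a given length were not compared.

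**Figure D2:**
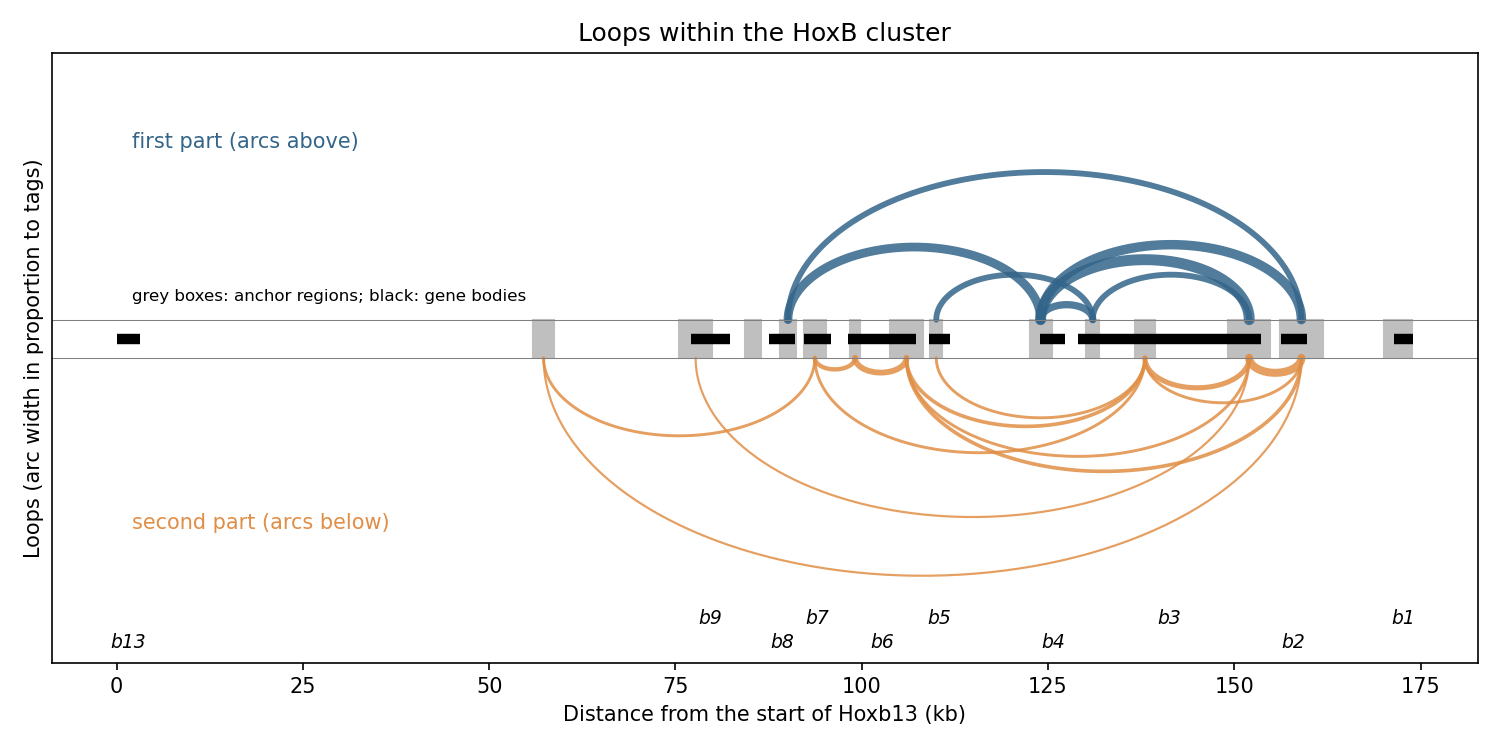
Loops within the HoxB cluster as arcs between anchor regions, by distance from the start of Hoxb13 (kb), with arc width in proportion to tags, the first part above and the second below. The 7 loops of the first part meet mostly at Hoxb4, the 13 of the second spread from Gm53 to Hoxb2, and nothing is listed from Hoxb13 to 56.0 kb.

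Loops leaving the cluster ran mostly past Hoxb1. On that side lay 92 loops with 127 tags, 88.8% (82.6 to 93.0%) of the leaving tags, and on the Hoxb13 side 14 loops with 16 tags. The share past Hoxb1 was 86.4% (73.3 to 93.6%) in the first part and 89.9% (82.4 to 94.4%) in the second. Within 2 Mb of the cluster the list has 67 anchor regions past Hoxb1 and 42 past Hoxb13, and the part of this unequal supply in the share was not tested. Most leaving loops (82 of 106, 77.4%) rested on a single tag, close to the 78.0% of the whole list, and none had more than 5 tags. Of the neighbors that code for proteins, Ttll6, a tubulin-modifying enzyme on the Hoxb13 side, had 1 loop of 1 tag, which came from the cluster. Skap1, a T cell adaptor gene on the Hoxb1 side, had no loop at its promoter. A further 23 loops of 1 tag each passed over the cluster without touching it.

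The body of Skap1, which starts 96.3 kb past the cluster and is 295 kb long (96464593 to 96759130), took in 47 of the leaving loops. They held 72 tags, 50.3% (42.3 to 58.4%) of the tags that left the cluster, in 10 anchor regions, none of them within 2 kb of any TSS. Of these regions 2 overlapped an exon of Skap1 and 8 lay in its introns. Conversely, 71.3% (61.8 to 79.2%) of the 101 tags with an anchor in the Skap1 body joined the HoxB cluster. The region with the most tags (chr11:96537350-96542390, 169 kb from the cluster) had 17 tags from 8 regions of the cluster, with 3 tags each from the Hoxb7, Hoxb4 and Gm53 regions. The next (chr11:96619556-96627306) had 13 tags from 6 regions. It includes the leaving loop with the most tags, 5 tags from Hoxb9 over 351 kb (FDR 9.05e-12), which had the lowest FDR of any loop at a HoxB gene.

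The loops into Skap1 came mostly from the second part of the list. This was so for all loops anchored in its body, whether or not they joined HoxB. The second part held 69 of those, with 94 tags, and the first part 5, with 7 tags. Of the loops leaving HoxB, the second part had 44 with 67 tags there, 62.0% (50.3 to 72.4%) of its leaving loops. The first part had 3 such loops with 5 tags, 8.57% (2.96 to 22.4%). These 5 tags of the first part all ended in a single region (chr11:96672619-96675244), which also held 4 tags of the second. Single-tag loops begin at a span of 344 kb in the first part and at 109 kb in the second. At or above 344 kb, a comparison chosen after the values were seen, 20 of 39 leaving loops of the second part ended in Skap1 (51.3%, 36.2 to 66.1%) and 3 of 34 of the first (8.82%, 3.05 to 23.0%).

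Most leaving loops of the first part ended instead at promoters. Of its 35 leaving loops, 32 (91.4%, 77.6 to 97.0%) ended within 2 kb of a TSS outside the cluster, and of the 71 of the second part 21 (29.6%, 20.2 to 41.0%). At or above 344 kb the shares were 91.2% and 46.2%. The share of loops ending at a TSS over each whole part was not computed. Whether the contrast is particular to HoxB was therefore not tested. The promoter met most often was that of Nfe2l1, a transcription factor that maintains proteasome genes, 458 kb past the cluster (chr11:96826572-96831447). It was joined to 10 regions of the cluster by 14 tags, 7 from each part, and was the outer region reached from most of the cluster. A loop of 4 tags (FDR 1.58e-07) from Hoxb9, 558 kb long, was the strongest among them. Socs7, a suppressor of cytokine signaling, had 4 tags, all of the first part, 2 of them from Hoxb2 over 1010 kb (FDR 0.000651). The promoters of Snx11, a sorting nexin (8 tags, 5 of the first part), and Cbx1, a heterochromatin protein (4 tags, all of the first part), are named after their values were seen. A region 38.3 kb past Hoxb1 and away from any gene body had 5 tags of the second part, 4 of them from the region of Hoxb5 and Hoxb6 (FDR 2.11e-05).

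**Figure D3:**
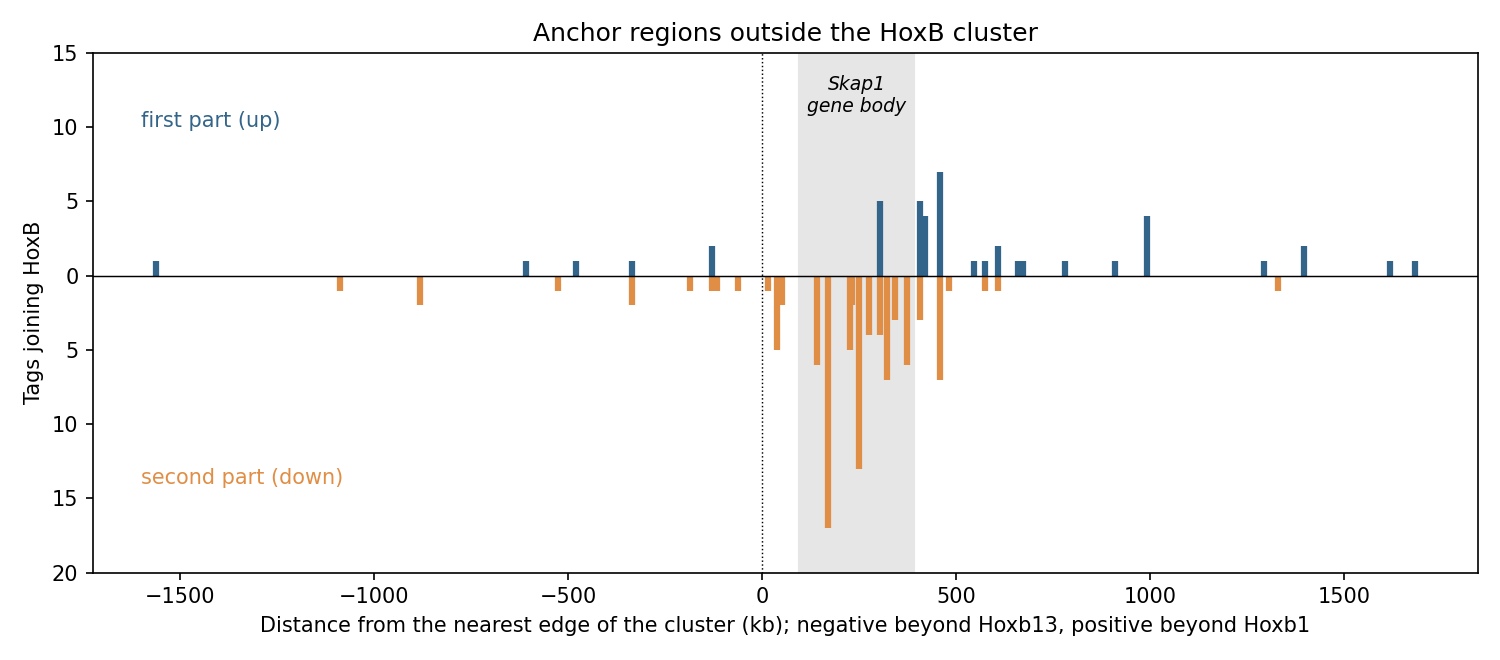
Tags joining the HoxB cluster to each anchor region outside it, by distance from the nearest edge of the cluster (kb; negative past Hoxb13, positive past Hoxb1), the first part upward and the second downward. The second part fills the shaded Skap1 gene body with 67 tags, where the first has 5, and both parts have 7 tags at Nfe2l1, 458 kb past Hoxb1.

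The regions in Skap1 also differed from those of the cluster in sequence. In the central 2 kb of each region, GC content had a median of 56.0% (47.1 to 64.3%) over the 14 cluster regions, 44.7% (39.0 to 49.5%) over the 10 Skap1 regions and 53.0% over all 16864 anchors. CpG numbered a median of 88, 29 and 75. The median number of GATC sites was alike, at 5.50, 5.00 and 5.00. TGATNNAT, on either strand, was found in 7 of the 14 cluster regions, 8 of the 10 Skap1 regions and 40.8% of all anchors, and a sequence rich in A and T holds it more easily. The core of the motif of CTCF, a protein that holds loop anchors, was searched on both strands with some of its positions free. It was found in the central 2 kb of 1 cluster region, no Skap1 region and 15.3% of all anchors.
Over the whole length of the 14 cluster and 10 Skap1 regions there were 4 matches to this core. They are shown because 2 of them lie in the Skap1 regions with the most tags. Those are also the widest of the 10 Skap1 regions, at 5.04 and 7.75 kb beside 1.71 to 3.82 kb for the others, and the part of width in their tags was not tested. Over their whole length 20.6% of all anchors hold a match, and 35.3% of those at least 4.44 kb wide, the width of the narrowest region with a match here. Each is given 5′ to 3′ on the strand of the match, with the core in capitals.
Hoxb6 region, chr11:96299345-96299374, plus strand: tcctattacCCACCAGCCGGCggcggctac
Hoxb3 region near Hoxb2, chr11:96344769-96344798, plus strand: ccaaggcgcCCACAAGGCGGCctggagaca
Skap1 region with 17 tags, chr11:96542137-96542166, minus strand: aagcctgcaCCAGAAGCTGGCagccaccag
Skap1 region with 13 tags, chr11:96621382-96621411, minus strand: caccaacagCCAGCAGGTGGCgctattcac
The matches in the cluster lie on the plus strand and those in Skap1 on the minus strand, so that they point toward each other. How often so few matches face each other elsewhere was not tested. The Hoxb3 region was joined to the first of the Skap1 regions by 2 tags (FDR 0.0011) and the Hoxb6 region to the second by 1 tag (FDR 0.0129). The other cluster regions that were joined to Skap1 hold no match. A match of letters is not a bound site.

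The other Hox clusters were read in the same way. HoxC, on chromosome 15, had more tags than HoxB, 605 within and 244 leaving, and 71.3% (68.1 to 74.2%) of them lay within. The clusters draw on the parts of the list unequally, so this share is also given by part. In the first part it was 75.9% (72.6 to 78.9%) for HoxC and 62.7% for HoxB, with intervals that do not overlap. In the second it was 46.7% (38.5 to 55.1%) and 40.7%, with intervals that overlap. The intervals take each tag as separate, though tags come in loops, such as the 7 within HoxB in the first part. Their overlap or lack of it is therefore no test of a difference between clusters. HoxA on chromosome 6 had 53 tags and HoxD on chromosome 2 had 51, all of them leaving. No loop within either cluster passed the caller. Median loop scores were 164 for the HoxC genes and 4 and 5.00 for those of HoxA and HoxD, beside 50.5 for HoxB. HoxB had 58.6% of its tags in the second part, where HoxC had 15.9% (13.6 to 18.5%), HoxA 20.8% (12 to 33.5%) and HoxD 35.3% (23.6 to 49.0%). HoxC has no group 1 gene, so its end at Hoxc4 was used in place of one. Tags leaving past this end made up 88.8% in HoxB, 75.4% (69.6 to 80.4%) in HoxC, 70.6% (57.0 to 81.3%) in HoxD and 52.8% (39.7 to 65.6%) in HoxA. The anchor regions within 2 Mb were not spread alike. Past the group 1 gene (Hoxc4 in HoxC) and past the opposite end the list has 67 and 42 for HoxB, 16 and 42 for HoxC, 18 and 25 for HoxD and 12 and 12 for HoxA. The shares therefore do not rank the clusters by direction.

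**Figure D4:**
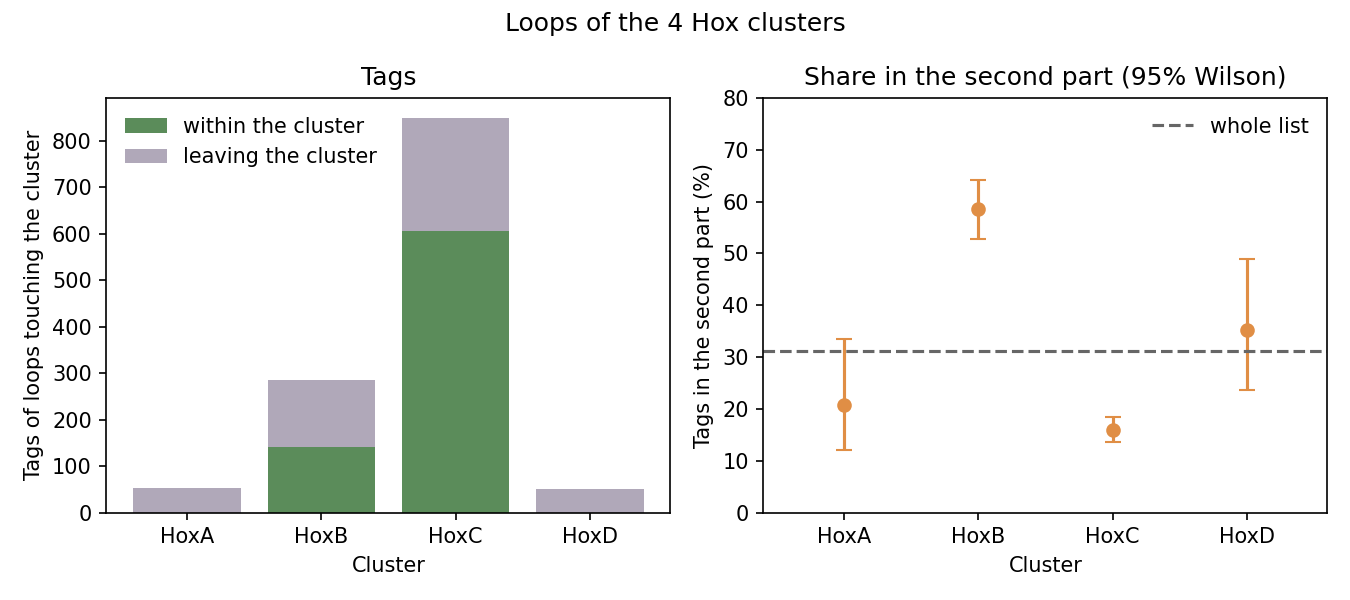
Tags of loops within and leaving each of the 4 Hox clusters (left), and the percent of those tags in the second part of the list with Wilson 95% intervals (right, dashed line at the 31.1% of the whole list). HoxA and HoxD have no tags within, HoxC has most tags, and HoxB is the cluster with its interval above the dashed line.

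Lists of genes that act with or on Hox genes had lower median loop scores than HoxB. The counts of looped genes stand beside 45.8% of all protein-coding genes with a loop. Of the 29 other Hox genes 25 had a loop, with a median of 7 and the largest loop score at Hoxc5 (385). Of 9 cofactor genes, whose homeodomain proteins bind DNA together with HOX proteins, 8 were looped with a median loop score of 5.00. The largest was Meis1 with 68 tags, 12 of the first part and 56 of the second. Of 12 retinoid and Cdx genes 6 were looped with a median of 0.5, led by Rxrb, a retinoid receptor subunit, with 95 tags. All 10 genes of Hox chromatin maintenance were looped, with a median of 7.50 and the largest value, 103, at Kdm6b, a demethylase that removes the Polycomb mark. None of the genes in these lists was joined to the HoxB cluster by a listed loop. The list holds only loops within 1 chromosome and up to 2000 kb long. Genes on other chromosomes or farther away therefore could not be joined, and their absence is no result.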

How the data were processed

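H3K27ac HiChIP of 2 SyS tumors was analysed, and the other 69 samples of the series were not used here. The authors mapped read pairs to mm10 with HiC-Pro and called loops with hichipper. Each loop of the deposited list has a raw count of paired-end tags. Beside it stands an FDR from the authors' caller, a p-value adjusted for multiple testing, at most 0.0499782 here. The supplement names Mango as the caller and a stricter FDR threshold than the methods, one that the largest FDR in the list exceeds. How the counts of the tumors were merged is not given in the sources used here. Unequal depth, peak strength and distance between anchors act on such counts, and single-tag loops passed the caller only at spans of 109 kb or more.

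Starts of anchors were converted to count from 1. TSSs came from GENCODE vM21 on GRCm38, the assembly of mm10, and sequences from RefSeq's tables and genome of GRCm38.p6. The span of a loop is the distance between anchor midpoints. Overlapping anchors were merged into regions. The HoxB genes, the lists, the alternatives and the rule for named genes (all members, looped genes inside the cluster, genes at the outer anchors of the 10 leaving loops with the most tags, the nearest neighbors and the top gene of each list) were chosen with earlier results of these data known. Regions, parts and motifs were described after the values were seen. Assignment was tested on simulated data, where all 200 planted genes received their planted score. Python 3.11.15, numpy 2.4.6 and matplotlib were used.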

Additional observations from a re-analysis of the deposited data

How the results depend on the processing

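No paired analysis was possible because the list holds no value for either tumor. The number of looped HoxB genes was between 7 and 9 in every setting tried, and Hoxb13 had no loop in any of them. For Hoxb13 only the settings that changed the promoter window or the TSSs could have added a loop. Of 56 recomputed values for the cluster and its promoters 33 stayed close to the reported ones, as did 72 of 120 loop scores. The limit for close was wide, so that 103 tags at Hoxb3 with RefSeq TSSs, beside 80, still counted. The 72 also include Hoxb13, which kept its score of 0 in each setting. These counts are therefore no measure of how stable the looped genes are. The tags at promoters (265) fell to 89 with loops at an FDR under 0.001, 126 under 0.01, 149 with at least 4 tags, 118 and 147 in the first and second part alone, and 111 when loops were counted. The tags within the cluster (142) were 50, 75, 74, 68 and 20 with an FDR under 0.001, under 0.01, in the first part, in the second part and as loops. The tags leaving it (143) were 47, 59 and 44 in the first 3 of these settings, 61 with at least 2 tags and 13 with at least 4. The share within the cluster (49.8%) moved to 91.3% with at least 4 tags, 70.0% with at least 2, 62.7% and 40.7% in the first and second part, 56.0% at an FDR under 0.01, 41.2% for spans of at least 20 kb and 15.9% as a share of loops. The FDR, tag, part and span settings keep fewer loops by construction, and counting loops gives each single-tag loop, all of them long, the weight of any other. Hoxb4 fell from 63 to 6 in the second part, and Hoxb6 from 47 to 6 in the first. Loops above 344 kb were an alternative added after the values were seen.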
